A study of Mus musculus with 35 samples.

Results

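The IL-4 receptor and STAT6 signalling genes are 10 of the 21203 genes measured in injured mouse brain, taken by name: the ligand Il4, the receptor chains Il4ra, Il13ra1 and Il2rg, the transducers Jak3 and Stat6, the feedback inhibitors Socs1 and Cish, and the transcription factors Irf4 and Pparg. They were chosen with earlier results of these data known. Of the 10 members, 9 had enough reads to be tested, as had 17131 genes in all, and Il4 had not. RNA-seq was performed on tissue around the injection site, labelled left cortex, from 34 male C57BL/6NCrl mice aged 8 to 9 weeks at the start and perfused before dissection. All mice but Sham received a closed head injury and, on day 5, an injection into the left hippocampus of PBS, of 150000 mesenchymal stromal cells (MSCs), or of as many MSCs transfected with synthetic IL-4 mRNA (IL-4 MSCs). The MSCs were a primary culture bought from 1 vendor, so they stand for a single cell lot. No group had MSCs transfected with another mRNA, so the parts of transfection and of IL-4 cannot be told apart. Tissue was taken at 1 week post-injury (1 wpi), 2 days after treatment, or at 3 wpi, 16 days after it. Each injured group had 5 mice, except PBS at 3 wpi with 4. The 5 Sham mice, of which 2 were collected in the first week and 3 in the third, had no impact and no injection. The mice of an injured group share 1 number in their labels that no other injured group has, so whatever it marks cannot be told apart from the group.

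IL-4 binds the receptor chain encoded by Il4ra, which then pairs either with the common gamma chain encoded by Il2rg or with IL-13Ra1, the form that also takes IL-13. Janus kinases on these chains phosphorylate STAT6, which enters the nucleus and switches on genes of the alternative, or M2-like, macrophage state. SOCS1 and CISH are cytokine-induced and dampen such signals, while IRF4 and PPAR-gamma are transcription factors that act with STAT6 in macrophages. In the brain, microglia and the macrophages that enter after injury carry this pathway.

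Libraries held 29838423 to 41554322 estimated counts, so 3 counts, taken as the lowest detectable level, were worth 0.0722 to 0.101 CPM (counts scaled to a fixed library total). This limit covers counting error only. Replicate 5 of the MSC group at 3 wpi stood apart. Its Il4ra was 23.6 CPM and that of its 4 group mates at most 7.81 CPM. Some leukocyte genes were high in it too, with Ptprc (CD45) at 20.4 CPM against at most 8.67 CPM and S100a9 at 6.35 CPM against at most 0.561 CPM. Others were about level in this mouse, such as Cd68 (9.11 against at most 9.05 CPM) and Adgre1 (7.93 against 7.85 CPM). Still others were not the highest in this mouse, such as Ms4a7 (0.517 against 0.687 CPM) and Cd4 (1.27 against 4.27 CPM). Over all genes it correlated least of the 34 libraries with its group (Pearson's r = 0.987, and up to 0.996 elsewhere). Calls that rest on it are given with and without it, while counts at an unadjusted p are given with it only. Cortex and hippocampus markers were present in every group. Summed hippocampus markers were 426 to 498 CPM in Sham and 360 to 569 CPM with IL-4 MSCs at 3 wpi. The tissue also held striatum to varying extent: summed striatum markers were 122 to 591 CPM in Sham and 247 to 1765 CPM with IL-4 MSCs at 3 wpi. The Sham mice split by week, with 128 and 122 CPM in those of the first week and 476, 524 and 591 CPM in those of the third. Sham mice of both weeks were nevertheless pooled as the reference, except where those of the same week are named. Because tissue was measured in bulk, more cells of a type and more RNA per cell cannot be told apart.

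At 1 wpi, 8 of the 9 tested members were raised by IL-4 MSCs over PBS, at an adjusted p under 0.05 in edgeR's quasi-likelihood test with Benjamini-Hochberg adjustment over all genes. The largest factors were those of Il2rg (3.88), Il4ra (3.08) and Socs1 (3.05), followed by Irf4 (2.21), Stat6 (1.72), Cish (1.46), Jak3 (1.45) and Il13ra1 (1.37). For all 8, every IL-4 MSC mouse was above every PBS mouse. Pparg, a nuclear receptor of lipid metabolism, had a factor of 1.33 that did not pass the test. Among all genes, 11.1% were called higher in this comparison and 11.5% were higher without overlap between mice. The median log2 fold change was 0.78 over the 9 members and -0.00 over all genes.

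**Figure D1:**
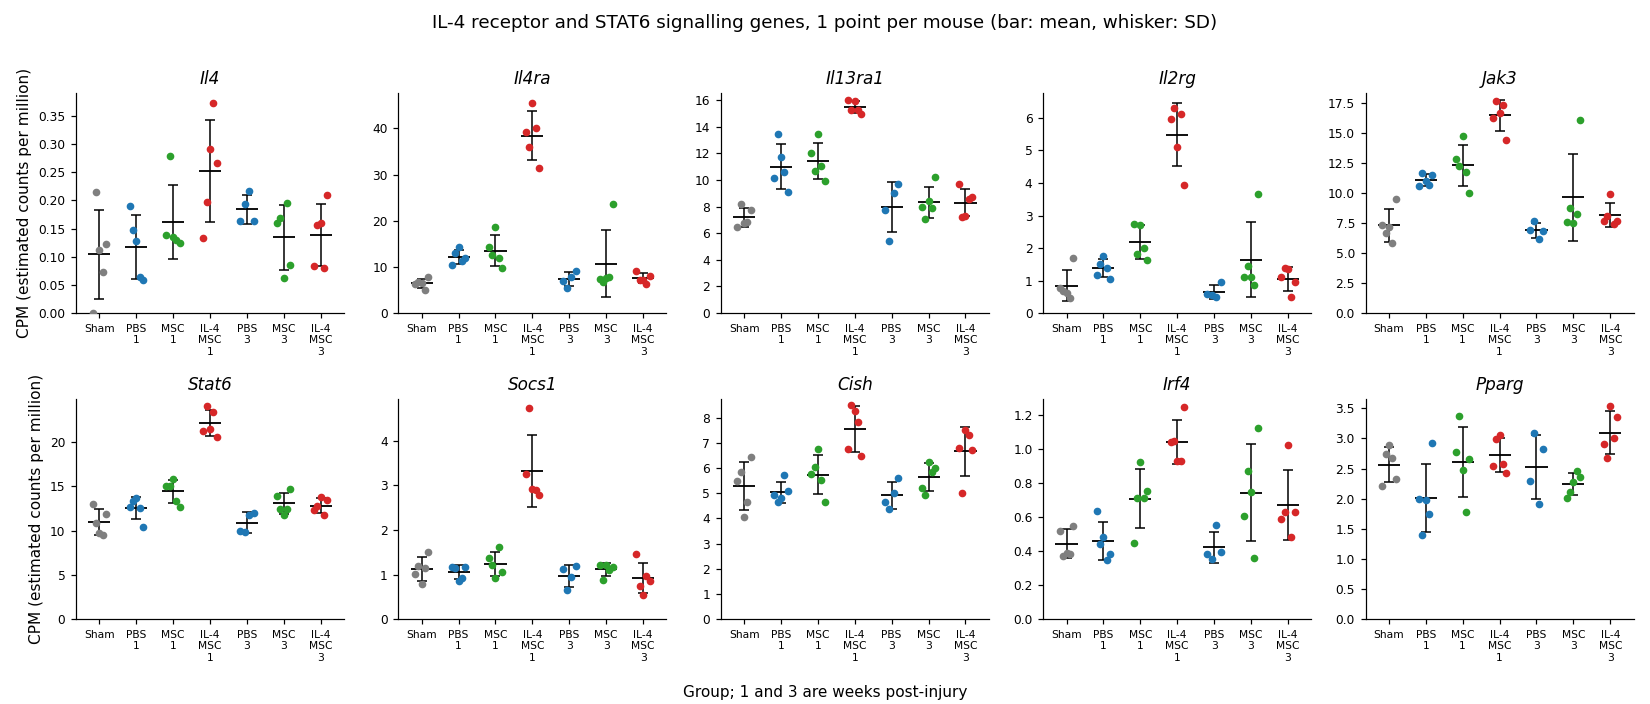
Level of each of the 10 members in CPM (vertical axes, each from 0) in the 7 groups, with 1 point per mouse, the mean as a bar and the SD as a whisker. At 1 wpi the IL-4 MSC mice lie above all PBS mice for every member but Il4 and Pparg, and 1 MSC mouse, at 23.6 CPM of Il4ra, stands alone at 3 wpi.

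Levels were compared between genes in TPM, a scale that also allows for transcript length. In Sham, Stat6 was the most abundant member, at 7.30 ± 1.77 TPM (SD, n = 5), followed by Cish at 5.36 ± 1.22, Il4ra at 4.92 ± 1.38, Il13ra1 at 4.16 ± 0.454, Jak3 at 3.96 ± 0.789 and Pparg at 3.35 ± 0.247 TPM. Il2rg at 1.33 ± 0.978, Socs1 at 0.866 ± 0.213, Il4 at 0.555 ± 0.412 and Irf4 at 0.405 ± 0.173 TPM came last. Mice overlapped between neighbours in this order, other than Pparg and Il2rg.

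The order was different in IL-4 MSC mice at 1 wpi. Il4ra was first, at 22.4 ± 2.84 TPM, and all its values were above those of Stat6, at 13.5 ± 1.56 TPM, which in turn were above those of Jak3, at 8.82 ± 0.648 TPM. Jak3, Il13ra1 at 8.70 ± 0.290, Il2rg at 8.38 ± 2.12 and Cish at 7.04 ± 1.37 TPM overlapped with their neighbours. Pparg at 3.50 ± 0.199 TPM lay below Cish and overlapped with Socs1 at 2.47 ± 0.568 TPM. Il4 at 1.27 ± 0.433 and Irf4 at 0.508 ± 0.117 TPM followed without overlap.

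The ligand gene Il4 (chromosome 11, 53602982 to 53618669, GRCm38, as for all positions here) was close to the detection limit throughout, with 0 to 12 counts per library. Its level at 1 wpi was 0.134, 0.198, 0.291, 0.372 and 0.267 CPM with IL-4 MSCs and 0.190, 0.147, 0.128, 0.0632 and 0.0589 CPM with PBS, and in Sham it was 0, 0.215, 0.111, 0.0722 and 0.122 CPM. IL-4 MSC mice were mostly the higher ones but overlapped with both. The mean difference of 0.135 CPM from PBS had p = 0.0317 in a two-sided exact permutation test over mice and 0.238 after adjustment over 15 comparisons. Of the 15, 2 reached this p, the lowest, and 0 passed after adjustment. The smallest p that 5 mice against 5 allow is 0.00794. With no filter on low counts, edgeR's quasi-likelihood test called 1 of the 15, IL-4 MSCs against Sham at 1 wpi (log2 fold change 1.18, adjusted p = 0.0306). Whether reads of the synthetic mRNA are counted as Il4 was not tested.

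Il4ra (chromosome 7, 125552120 to 125579474) encodes the chain that binds IL-4 itself. Its level at 1 wpi was 39.2, 36.0, 45.6, 40.1 and 31.4 CPM with IL-4 MSCs, 10.3, 12.98, 14.3, 11.3 and 11.96 CPM with PBS and 14.2, 12.6, 18.7, 12.02 and 9.77 CPM with MSCs. The lowest IL-4 MSC mouse was well above the highest mouse of either other group, and the other two overlapped. IL-4 MSCs exceeded PBS by 1.62 ± 0.23 on the log2 scale (SE, adjusted p = 5.42e-06) and MSCs by 1.49 ± 0.23 (adjusted p = 2.54e-05). Sham mice had 5.05 to 7.78 CPM, all below the PBS mice. PBS exceeded Sham by 0.87 ± 0.24 (adjusted p = 0.0146), and missed the threshold against the 2 Sham mice of that week alone (1.01, adjusted p = 0.0559).

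Il2rg (chromosome X, 101264378 to 101268255) encodes the common gamma chain, shared with the receptors for IL-2, IL-7, IL-9, IL-15 and IL-21. At 1 wpi IL-4 MSC mice had 5.97, 6.30, 5.12, 6.11 and 3.94 CPM, MSC mice 2.75, 1.82, 2.72, 2.00 and 1.63 CPM and PBS mice 1.17, 1.497, 1.76, 1.39 and 1.06 CPM. IL-4 MSC mice overlapped with neither, while MSC and PBS mice overlapped with each other. The log2 difference of IL-4 MSCs was 1.96 ± 0.31 from PBS (adjusted p = 1.62e-05) and 1.30 ± 0.29 from MSCs (adjusted p = 0.00262). Il2rg overlaps Gm20489 on the same strand and had counts that were not whole in 5 libraries, so some of its reads were shared with another gene. Whether this was Gm20489 was not tested.

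Il13ra1 (chromosome X, 36112110 to 36171259), the alternative partner chain, had smaller differences. It was 14.9 to 16.02 CPM with IL-4 MSCs at 1 wpi, 9.08 to 13.5 CPM with PBS, 9.96 to 13.5 CPM with MSCs and 6.46 to 8.18 CPM in Sham. The 3 injured groups were above Sham without overlap, and IL-4 MSCs above the other two. The log2 difference was 0.46 ± 0.11 from PBS (adjusted p = 0.00400) and 0.41 ± 0.11 from MSCs (adjusted p = 0.0148), and that of PBS from Sham was 0.58 ± 0.12 (adjusted p = 0.000583). Without MSC replicate 5 at 1 wpi the difference from MSCs missed the threshold (0.37, adjusted p = 0.0573).

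Of the transducers, Stat6 (chromosome 10, 127642986 to 127660957) is the factor that carries the signal to the nucleus. It was 21.2, 24.1, 21.5, 23.4 and 20.6 CPM with IL-4 MSCs at 1 wpi, 12.7, 13.3, 13.8, 12.5 and 10.5 CPM with PBS and 15.1, 15.1, 15.9, 13.4 and 12.7 CPM with MSCs. Mice varied little within groups, and the IL-4 MSC mice lay clear of the rest. The log2 difference was 0.78 ± 0.08 from PBS (adjusted p = 1.37e-08) and 0.59 ± 0.08 from MSCs (adjusted p = 2.71e-06). PBS mice overlapped with Sham, at 9.46 to 12.96 CPM (0.16 ± 0.08, adjusted p = 0.231), although against the Sham mice of that week the difference passed (0.33, adjusted p = 0.0362). Stat6 overlaps Nab2 on the opposite strand.

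Jak3 (chromosome 8, 71676296 to 71690575), the kinase bound to the common gamma chain, differed between PBS and Sham as well as between treatments. PBS mice had both the impact and an injection and Sham mice had neither, so the parts of these cannot be told apart. Sham mice had 5.83 to 9.53 CPM, PBS mice 10.6 to 11.7, MSC mice 10.1 to 14.8 and IL-4 MSC mice 14.4 to 17.7 CPM at 1 wpi. PBS mice did not overlap with Sham, and IL-4 MSC mice overlapped with MSC but not with PBS mice. PBS exceeded Sham by 0.57 ± 0.15 on the log2 scale (adjusted p = 0.00763) and IL-4 MSCs exceeded PBS by 0.54 ± 0.14 (adjusted p = 0.00782). The difference of 0.39 ± 0.14 from MSCs did not pass in the fit of all groups (adjusted p = 0.0890) but did with only both groups in the fit (0.0116) or without MSC replicate 3 (0.0393). Jak3 overlaps Insl3 on the same strand and had counts that were not whole in 33 libraries, so its level is uncertain.

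Socs1 (chromosome 16, 10782240 to 10785536), whose product blocks Janus kinases, passed the test against Sham at 1 wpi with IL-4 MSCs and with neither other treatment. Its level was 3.25, 4.72, 2.91, 2.89 and 2.79 CPM with IL-4 MSCs, 1.17, 1.15, 0.863, 0.916 and 1.18 CPM with PBS, 1.36, 1.21, 0.924, 1.61 and 1.06 CPM with MSCs and 0.780 to 1.495 CPM in Sham. PBS, MSC and Sham mice overlapped with each other, and every IL-4 MSC mouse was above all of them. The log2 difference of IL-4 MSCs was 1.61 ± 0.20 from PBS (adjusted p = 2.79e-07), 1.40 ± 0.20 from MSCs (adjusted p = 3.58e-06) and 1.48 ± 0.20 from Sham (adjusted p = 2.83e-07), whereas PBS differed from Sham by -0.12 with a 95% interval of -0.54 to 0.29.

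Cish (chromosome 9, 107296026 to 107302784), the other feedback inhibitor, rose by a smaller factor. At 1 wpi it was 6.74, 8.51, 8.26, 7.82 and 6.47 CPM with IL-4 MSCs, 4.94, 4.66, 4.80, 5.72 and 5.07 CPM with PBS and 5.78, 6.03, 6.74, 5.51 and 4.63 CPM with MSCs. IL-4 MSC mice were all above PBS mice but overlapped with MSC mice. The log2 difference was 0.55 ± 0.11 from PBS (adjusted p = 0.000649) and 0.37 ± 0.11 from MSCs (adjusted p = 0.0322). The call against MSCs was lost without any of 6 single mice, IL-4 MSC replicates 2, 3 and 4 and MSC replicates 1, 4 and 5 (adjusted p up to 0.128).

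Since both feedback genes are cytokine-induced, promoters were searched for the STAT palindromes TTCNNNGAA, the spacing most STAT proteins prefer, and TTCNNNNGAA, the wider spacing that STAT6 also binds. Each pattern reads the same on both strands, and a window can hold both. RefSeq promoters (GRCm38.p6, 250 bases before to 50 after each start) were found for all 10 members, in 13 windows. The narrow pattern was in 8.3% of 32851 promoter windows of all genes, the wide one in 6.95% and either in 14.6%. Among the members only Cish and Il4 held a match, Cish 2 of the narrow kind and Il4 1 of each kind. The stretch from 100 bases before to 20 after the start is shown for Cish (chr9:107296559-107296678, plus strand), Socs1 (chr16:10785517-10785636, minus strand) and Il4ra (chr7:125552171-125552290, plus strand). Cish is shown for its 2 matches, in capitals, and the others as examples of members that rose more and held none. Il2rg, Irf4 and Stat6, not shown, also rose more than Cish and held none.
Cish: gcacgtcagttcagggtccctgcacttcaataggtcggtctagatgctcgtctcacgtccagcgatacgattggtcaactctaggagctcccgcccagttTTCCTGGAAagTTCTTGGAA
Socs1: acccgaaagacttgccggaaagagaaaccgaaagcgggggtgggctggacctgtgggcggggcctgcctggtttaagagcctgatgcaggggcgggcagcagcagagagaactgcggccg
Il4ra: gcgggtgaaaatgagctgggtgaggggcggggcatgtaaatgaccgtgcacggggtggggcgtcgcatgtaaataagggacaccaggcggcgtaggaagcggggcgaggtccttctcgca
The Cish matches, TTCCTGGAA and TTCTTGGAA, begin at bases 1 and 12 of the transcript. A match describes letters and not binding, and a window without one says nothing of sites elsewhere.

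Irf4 (chromosome 13, 30749226 to 30766976), a factor of alternatively activated macrophages and of lymphocytes, was scarce, with 11 to 42 counts per library. At 1 wpi it was 1.04, 1.05, 0.931, 0.931 and 1.25 CPM with IL-4 MSCs, 0.444, 0.711, 0.924, 0.709 and 0.751 CPM with MSCs and 0.633, 0.442, 0.480, 0.347 and 0.383 CPM with PBS. The IL-4 MSC mice were above all others, narrowly so for MSC mice. The log2 difference was 1.15 ± 0.24 from PBS (adjusted p = 0.000601) and 0.53 ± 0.22 from MSCs (adjusted p = 0.168). The comparison with Sham depended on the scale: in CPM the IL-4 MSC mice were all above Sham (0.369 to 0.549 CPM), and in TPM, at 0.402 to 0.694 TPM, they overlapped with Sham at 0.271 to 0.703 TPM.

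Pparg (chromosome 6, 115360951 to 115490399) was 2.43 to 3.05 CPM with IL-4 MSCs at 1 wpi, 1.40 to 2.92 CPM with PBS, 1.77 to 3.37 CPM with MSCs and 2.21 to 2.90 CPM in Sham. All groups overlapped. The log2 difference of IL-4 MSCs from PBS was 0.41 (95% interval 0.10 to 0.72, adjusted p = 0.0754) and passed the test without PBS replicate 5 (0.60, adjusted p = 0.00623), when PBS was also below Sham (-0.57, adjusted p = 0.01004). From Sham the IL-4 MSC mice differed by 0.01, with an interval of -0.29 to 0.32.

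**Figure D2:**
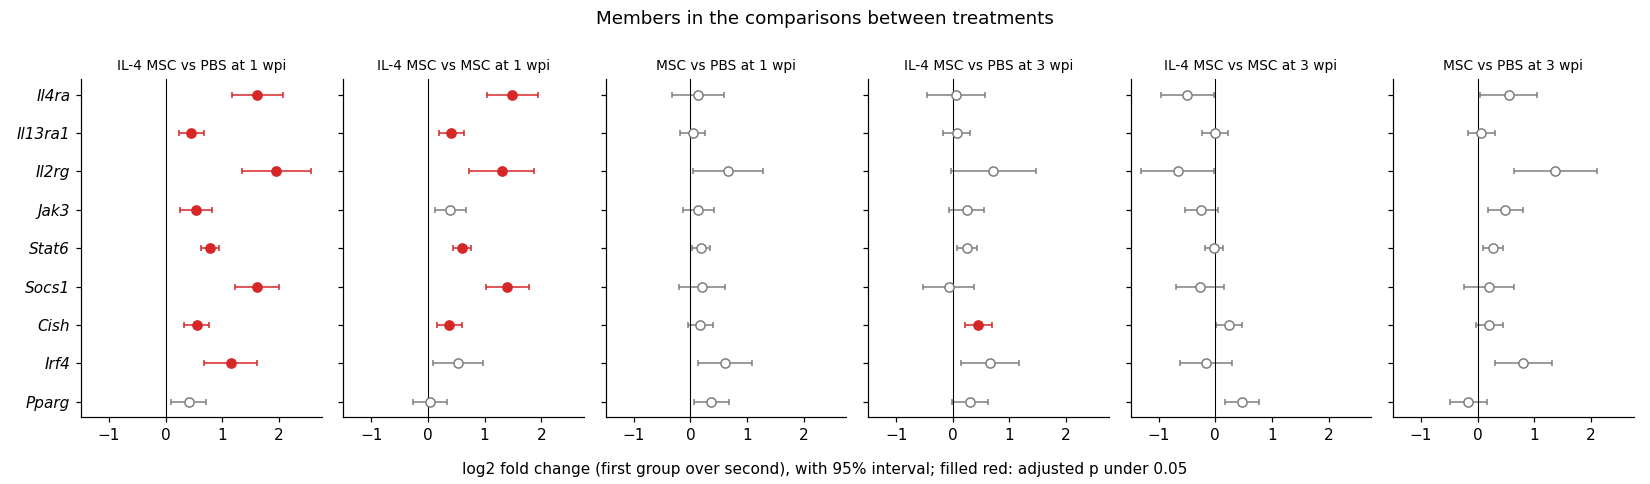
Log2 fold changes (horizontal axis) of the 9 tested members in the 6 comparisons between treatments, with 95% intervals; filled red points had an adjusted p under 0.05. Red points number 8 and 6 in the comparisons of IL-4 MSCs at 1 wpi, 1 in that with PBS at 3 wpi, which is Cish, and 0 in the other three.

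Against Sham at 1 wpi, 3 members were called higher with PBS (Il4ra, Il13ra1 and Jak3), where 8.7% of all genes were. With MSCs 5 were (the same 3 with Il2rg and Stat6; 10.9% of all genes), and with IL-4 MSCs 8 were (all tested but Pparg; 18.4% of all genes). None of the 9 was called lower in these comparisons, which share the Sham mice. Sham replicate 5 had more Il2rg (1.68 CPM) than its group mates (at most 0.780 CPM), and without it Il2rg also passed with PBS (log2 difference 1.09, adjusted p = 0.0323; 0.69 and 0.200 with it). Against MSCs at 1 wpi, 6 members were called higher with IL-4 MSCs (7.65% of all genes), namely those called against PBS less Jak3 and Irf4.

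No member differed detectably between MSCs alone and PBS at 1 wpi. The quasi-likelihood test called 0 of the 9 members, where 0.0992% of all genes were called, DESeq2 also called 0, and 4 had an unadjusted p under 0.05, all in the direction of MSCs. The log2 differences ran from 0.04 (Il13ra1, 95% interval -0.18 to 0.27) to 0.66 (Il2rg, 0.04 to 1.27).

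At 3 wpi, no member passed the test against Sham in any injured group. Il4ra was 9.10, 7.22, 7.12, 6.33 and 8.09 CPM with IL-4 MSCs, 6.92, 5.47, 7.72 and 9.18 CPM with PBS and 6.24, 6.79, 6.60, 5.05 and 7.78 CPM in Sham. Stat6 was 11.8 to 13.8, 9.85 to 12.03 and 9.46 to 12.96 CPM, and Socs1 0.543 to 1.46, 0.644 to 1.18 and 0.780 to 1.495 CPM, in the same order. All these groups overlapped, for each of the 3 genes. The quasi-likelihood test called 0 members with PBS, MSCs and IL-4 MSCs (0.0175%, 1.16% and 4.02% of all genes were called), as did DESeq2, with 0, 5 and 3 at an unadjusted p under 0.05. The 688 genes called with IL-4 MSCs became 98 with only both groups in the fit and 111 with a score of the striatum markers as covariate. The log2 difference of Il4ra between IL-4 MSCs and Sham was 0.22 (95% interval -0.27 to 0.70).

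Single mice changed some of these values. In MSCs, Il4ra was 0.71 above Sham on the log2 scale with replicate 5 (adjusted p = 0.206) and 0.18 without it (adjusted p = 0.784). Without Sham replicate 5, Il2rg passed with MSCs (1.38, adjusted p = 0.0262; 0.98 and 0.195 with it, but 0.45 and 0.690 with all Sham mice and without MSC replicate 5) and Cish with IL-4 MSCs (0.40, adjusted p = 0.0432; 0.33 and 0.0978 with it). Cish also passed without IL-4 MSC replicate 2 (adjusted p = 0.0174), and Irf4 passed with MSCs without their replicate 4 (0.91, adjusted p = 0.0405). Irf4 was at 0.74 (adjusted p = 0.154) with all mice and at 0.55 (adjusted p = 0.497) without MSC replicate 5.

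Cish was the 1 member called higher with IL-4 MSCs against PBS at 3 wpi, where 2.13% of all genes were. Over all genes the count called in either direction, 496, was 0 with only both groups in the fit, 4 with the striatum score as covariate and 68 to 1554 with 1 mouse left out, the highest without IL-4 MSC replicate 2, which had the fewest striatum markers of its group. Cish was 6.78, 5.02, 7.51, 7.30 and 6.70 CPM with IL-4 MSCs and 4.65, 4.38, 5.02 and 5.60 CPM with PBS, so that the lowest IL-4 MSC mouse fell among the PBS mice. The log2 difference was 0.45 ± 0.12 (adjusted p = 0.0378). The call was lost without any of 7 single mice, IL-4 MSC replicates 1, 3, 4 and 5 and PBS replicates 1, 2 and 3 (adjusted p up to 0.141), with only both groups in the fit (adjusted p = 0.232), and with the replicate number as a block (adjusted p = 0.0550). With the striatum marker score as a covariate the difference was 0.05 (adjusted p = 0.981), and summed striatum markers were 247 to 1765 CPM in the IL-4 MSC mice and 136 to 372 CPM in the PBS mice.

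Against MSCs at 3 wpi, 0 members passed with IL-4 MSCs in the quasi-likelihood test (3.3% of all genes did) and in DESeq2, with 2 at an unadjusted p under 0.05. The 566 genes called in either direction became 0 with only both groups in the fit and 0 with the striatum score as covariate. Pparg, the member nearest the threshold, was 2.91, 2.67, 3.55, 3.00 and 3.35 CPM with IL-4 MSCs and 2.01, 2.10, 2.28, 2.45 and 2.36 CPM with MSCs. These mice did not overlap, as for 0.87% of all genes. The log2 difference of 0.47 ± 0.16 had an adjusted p of 0.0892, or 0.0429 without IL-4 MSC replicate 2. That was the 1 call on Pparg in 16 alternatives, where the adjusted p reached 0.453. In MSCs against PBS at 3 wpi both tools called 0 members (0.0759% of all genes in the quasi-likelihood test), and 5 had an unadjusted p under 0.05, all in the direction of MSCs. That log2 difference was 1.37 for Il2rg with MSC replicate 5 and 0.85 without it, and for Il4ra 0.55 and 0.03.

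From 1 to 3 wpi, 7 of the 9 tested members fell in IL-4 MSC mice, where 16.5% of all genes did. On the log2 scale Il4ra fell by 2.28 (SE 0.24), Il2rg fell by 2.33 (SE 0.32) and Socs1 fell by 1.78 (SE 0.20), with adjusted p of 8.96e-09, 5.98e-07 and 1.62e-08 in edgeR. The log2 changes of the kinase Jak3 (-0.96), of Il13ra1 (-0.83) and of Stat6 (-0.73) were smaller. For these 6 the mice of both weeks did not overlap, as for 18% of all genes. Irf4, with overlapping mice, had -0.58 and an adjusted p of 0.0467 that passed the threshold but was lost without any of 7 single mice, replicates 1, 2 and 5 at 1 wpi and 1, 2, 4 and 5 at 3 wpi (up to 0.124), without the low-count filter (0.0578) and with the striatum score as covariate (-0.50, adjusted p = 0.121). Cish at -0.12 (95% interval -0.34 to 0.10) and Pparg at 0.25 (-0.05 to 0.55) did not pass, although with the striatum score as covariate Cish did (-0.33, adjusted p = 0.00110).

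In PBS mice, 2 members fell between the weeks, where 4.86% of all genes did. Jak3 fell by 0.66 on the log2 scale (SE 0.16, adjusted p = 0.00747) and Il13ra1 fell by 0.45 (SE 0.12, adjusted p = 0.0234). The call on Il13ra1 was lost without any of 4 single mice, replicates 2 and 3 at 1 wpi and 1 and 2 at 3 wpi (adjusted p up to 0.175). With only both PBS groups in the fit it was lost as well (adjusted p = 0.190), while Il4ra (-0.71, adjusted p = 0.0121) and Il2rg (-1.08, adjusted p = 0.0200) passed. Mice at 3 wpi were all below those at 1 wpi for 3 members, Il4ra, Il2rg and Jak3, as for 6.25% of all genes.

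In MSC mice, 1 member fell between the weeks, Il13ra1, which fell by 0.43 (adjusted p = 0.0204), where 4.91% of all genes did. This count rested on which mice were kept. Without MSC replicate 5 at 3 wpi 4 members fell: Il4ra fell by 0.83 in place of 0.30 (adjusted p = 0.000424 in place of 0.562), Jak3 fell by 0.59 in place of 0.32 (0.000361 in place of 0.230), Il13ra1 fell by 0.51 (0.00427) and Il2rg fell by 0.91 in place of 0.37 (0.0368 in place of 0.600). Without MSC replicate 1 or 3 at 1 wpi, or replicate 2 at 3 wpi, 0 passed, with Il13ra1 at an adjusted p of 0.0511, 0.0852 and 0.0653.

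**Figure D3:**
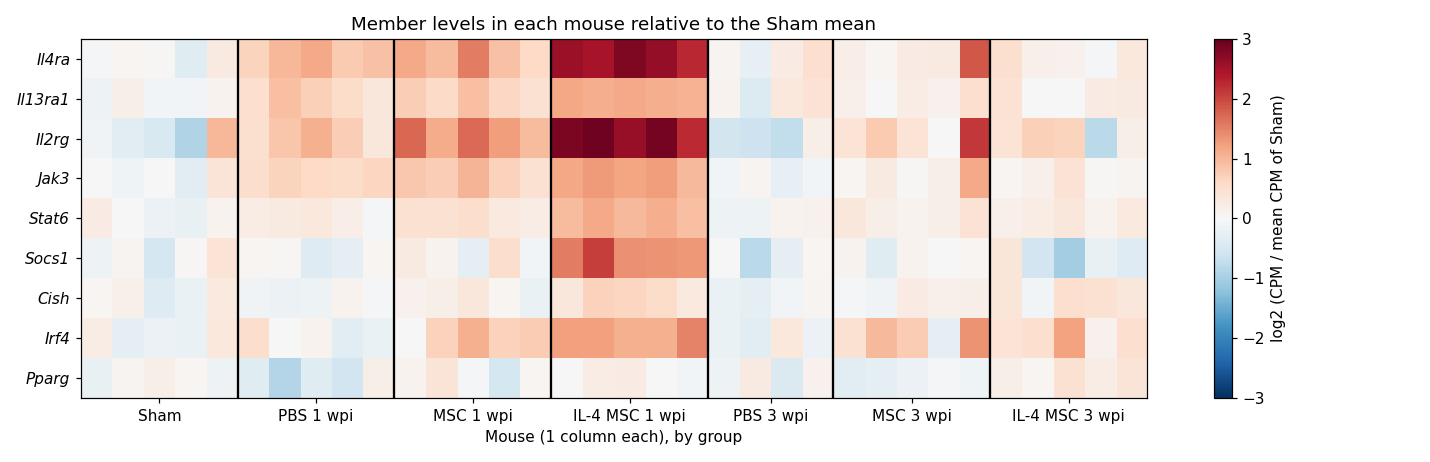
Each column is 1 of the 34 mice and each row 1 of the 9 tested members, coloured by the log2 ratio of its CPM to the mean of Sham (red higher, blue lower). The 5 IL-4 MSC mice at 1 wpi form the reddest block, and MSC replicate 5 at 3 wpi differs from its group mates most clearly in Il4ra, Il2rg and Jak3.

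Whether the effect of IL-4 MSCs differed between the weeks was tested directly, as the log2 difference at 1 wpi less that at 3 wpi. Against PBS, 3 members passed, Socs1 with 1.68 ± 0.30 (adjusted p = 0.000616), Il4ra with 1.56 ± 0.35 (adjusted p = 0.00637) and Stat6 with 0.54 ± 0.12 (adjusted p = 0.00616), where 3.89% of all genes had a larger difference at 1 wpi. Against MSCs, 4 passed, Il4ra with 1.98 ± 0.33 (adjusted p = 0.000225), Il2rg with 1.96 ± 0.44 (adjusted p = 0.00431), Socs1 with 1.67 ± 0.29 (adjusted p = 0.000234) and Stat6 with 0.62 ± 0.12 (adjusted p = 0.000662), where 5.88% of all genes had. Both sets share the IL-4 MSC mice. Without MSC replicate 5 at 3 wpi the same 4 passed, at 1.47, 1.44, 1.67 and 0.59. The interaction of Cish against PBS was 0.10 (95% interval -0.22 to 0.43), not detectable at this precision, while with the striatum score as covariate Cish (0.41, adjusted p = 0.0203) and Il13ra1 (0.53, adjusted p = 0.0442) passed against MSCs.

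Markers of macrophages and microglia moved with these results. Summed over 10 genes, all detected in every library, they were 163 to 237 CPM in Sham and, at 1 wpi, 286 to 359 CPM with PBS, 311 to 386 CPM with MSCs and 420.0 to 513 CPM with IL-4 MSCs. At 3 wpi they were 189 to 219, 201 to 259.7 and 200.2 to 232 CPM. Of the 10, 7 were called higher with IL-4 MSCs against PBS at 1 wpi and 0 lower, where 11.1% of all genes were called higher. By median counts per library, Csf1r (4024), Itgam (1283) and P2ry12 (1057) weighed most in the sum, and Ccr2 (54.6) and Ms4a7 (22.5) least. The mean sum was 1.43 times that of PBS, above the factor of Il13ra1 and below those of Il4ra, Il2rg and Socs1 given earlier. Single genes of the list, named after their values were seen, spread widely around it. The monocyte and macrophage genes Ms4a7, Ccr2 and Adgre1 had factors of 8.75, 4.69 and 3.01, the first 2 above every member, whereas the microglial genes Tmem119 (1.01) and P2ry12 (0.916) and the abundant Itgam (1.00) did not pass.

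Set against this sum, the members parted. Per 100 CPM of the markers at 1 wpi, Il4ra was 7.02 to 10.2 CPM with IL-4 MSCs, 3.25 to 4.29 CPM with PBS and 3.08 to 4.84 CPM with MSCs. On the same scale Il2rg was 0.939 to 1.39, 0.368 to 0.526 and 0.514 to 0.861 CPM, and Socs1 0.654 to 0.920, 0.258 to 0.412 and 0.239 to 0.519 CPM. For these 3 the IL-4 MSC mice stayed above both other groups without overlap. The share of all genes that do so on this scale was not computed. They were also above Sham for Il4ra and Il2rg, while Socs1 overlapped with Sham (Sham 0.451 to 0.735 CPM). Stat6 stayed above PBS (4.44 to 5.30 against 3.66 to 4.11 CPM), overlapped with MSCs (4.01 to 4.72 CPM) and reached its highest values in Sham (5.02 to 7.47 CPM). Il13ra1 (2.98 to 3.58 with IL-4 MSCs, 3.18 to 3.76 with PBS) and Jak3 (3.41 to 3.94 and 3.27 to 4.03) overlapped. Irf4 stayed narrowly above PBS (0.204 to 0.297 against 0.112 to 0.199 CPM) and overlapped with MSCs (0.139 to 0.239 CPM) and Sham (0.226 to 0.300 CPM). Cish and Pparg overlapped with both PBS and MSCs. MSC replicate 5 at 3 wpi still stood out in Il4ra, at 9.08 CPM. The sum rests most on Csf1r, Itgam and P2ry12 and little on Ms4a7 and Ccr2, so these ratios do not set the members against the number of entering macrophages. The part of cell numbers in the results was not tested.

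**Figure D4:**
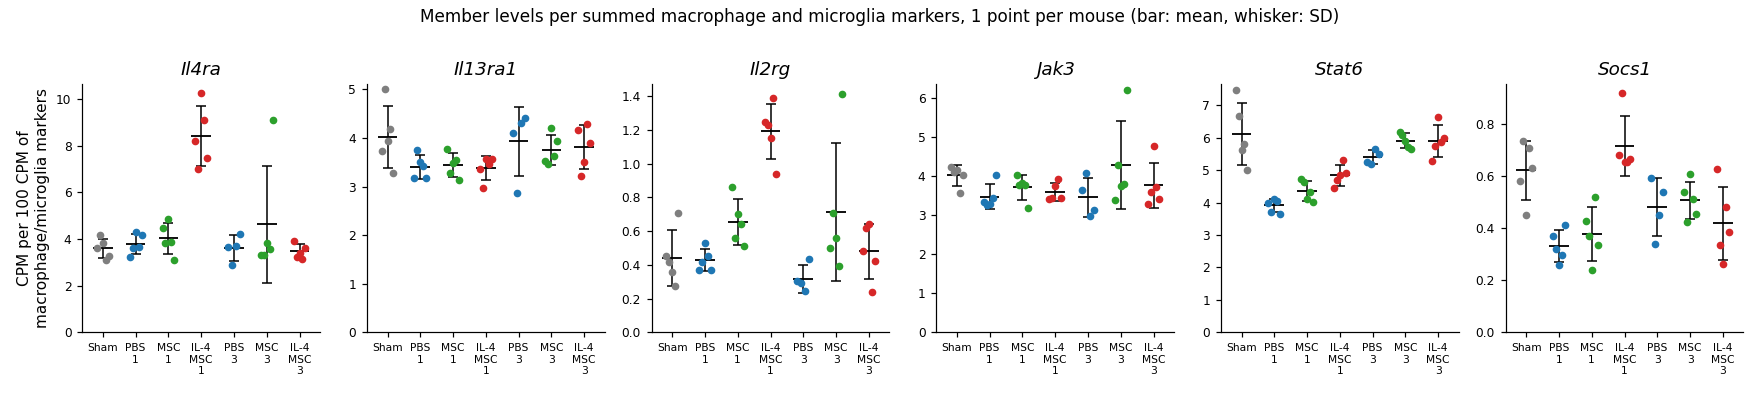
Level of 6 members per 100 CPM of the summed macrophage and microglia markers (vertical axes, each from 0), with 1 point per mouse, the mean as a bar and the SD as a whisker. Il4ra, Il2rg and Socs1 remain higher in every IL-4 MSC mouse at 1 wpi than in any PBS or MSC mouse of that week, and Il13ra1 and Jak3 overlap. The marker sum rests most on Csf1r, Itgam and P2ry12 and little on Ms4a7 and Ccr2.

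Other cell types moved as well. Summed endothelial markers were 228 to 292 CPM with IL-4 MSCs at 1 wpi, 164 to 205 CPM with MSCs and 151 to 175 CPM with PBS, with 5 of 5 genes called against PBS. Among all genes, 17.1% were called in either direction in this comparison. Fibroblast and stromal markers were 302 to 412, 225 to 658 and 125 to 206 CPM, with 3 of 6 called, and T cell markers 7.28 to 11.6, 3.93 to 9.09 and 4.16 to 5.96 CPM, with 1 of 6 called. Of 5 neuron, 5 astrocyte and 5 oligodendrocyte markers the quasi-likelihood test called 0, with 1, 0 and 0 at an unadjusted p under 0.05. Neutrophil markers, summed over 5 genes, were 11.7 to 17.7, 8.99 to 22.1 and 7.86 to 20.8 CPM, with 1 of 4 tested called, Ly6g at 0 in 23 libraries and S100a9 detected in all 34. By median counts per library, Cxcr2 (267) weighed most in the neutrophil sum. Mast cell and eosinophil markers, summed over 7 genes and carried mostly by Kit, were 40.4 to 46.4, 40.2 to 69.2 and 45.7 to 57.9 CPM, with 1 of 4 tested called, Fcer1a at 0 in 24 libraries and Siglecf detected in all 34. Summed striatum markers were 287 to 613 CPM with IL-4 MSCs, 149.1 to 619 CPM with MSCs and 186 to 278 CPM with PBS, 1.99 times the mean of PBS and without overlap with it, with 0 of 7 called and 2 at an unadjusted p under 0.05. All 8 members called against PBS at 1 wpi stayed called when a score of these markers was a covariate (adjusted p up to 0.0241). The part of these cells in the results was not tested.

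Other components of the pathway were read from a list of 23 genes, 22 of them tested. This list and those that follow were chosen with earlier results of these data known. IL-4 MSCs raised 9 over PBS at 1 wpi and lowered 0, where 11.1% of all genes were raised, and the list's median log2 fold change was 0.10. Il13ra2, a decoy receptor that takes up IL-13, rose from 0.295 to 1.70 CPM (2.49 ± 0.42, adjusted p = 5.14e-05). Socs3, an inhibitor of IL-6-type signals, rose by 0.91 ± 0.25 (adjusted p = 0.0110), Ptpn6, the phosphatase SHP-1, by 0.80 ± 0.15 (adjusted p = 0.000278) and Stat5a, a transducer of IL-2 and related cytokines, by 0.72 ± 0.13 (adjusted p = 9.59e-05). The other Janus kinases, singled out after their values were seen, did not all pass, with Jak2 higher by 0.47 (adjusted p = 2.32e-06) and Jak1 at -0.03 (95% interval -0.10 to 0.04) and Tyk2 at 0.10 (-0.00 to 0.21) not passing. Il13, the other ligand, had 0.05004 CPM with IL-4 MSCs and 0.0485 CPM with PBS, under the lowest detectable level, and was not tested. At 3 wpi the quasi-likelihood test called 0 of the 22 against PBS, with 6 at an unadjusted p under 0.05.

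Of 6 receptor chains that pair with the common gamma chain, 3 rose at 1 wpi over PBS, where 11.1% of all genes did. Il2rb, shared by the IL-2 and IL-15 receptors, rose from 0.496 to 3.26 CPM (2.69 ± 0.29, adjusted p = 2.45e-08), the IL-7 receptor chain Il7r from 1.64 to 4.14 CPM (1.30 ± 0.21, adjusted p = 2.96e-05) and the IL-21 receptor Il21r from 3.44 to 6.46 CPM (0.87 ± 0.15, adjusted p = 4.81e-05). At 3 wpi Il2rb was the 1 chain called against PBS (1.22 ± 0.32, adjusted p = 0.0345). This call was lost with only both groups in the fit (adjusted p = 0.222), with the replicate number as a block (0.0642), with the striatum score as covariate (0.404) and without any of 7 single mice, all but IL-4 MSC replicate 2 and PBS replicate 4 (up to 0.164). Summed T cell markers were 8.40 to 23.1 CPM with IL-4 MSCs and 4.64 to 7.09 CPM with PBS at 3 wpi, without overlap. Over all libraries, Cd4 reached 711 counts and the other genes of this list at most 111. Among these IL-4 MSC mice the sum was lowest in replicate 2, which had the fewest striatum markers (247 CPM). It was highest in replicate 4, which had the most (1765 CPM). The part of T cells in this result was not tested.

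Genes known to be switched on through STAT6 in macrophages were read from a list of 15. Since earlier results of these data were known when it was chosen, the counts below describe this list only. IL-4 MSCs raised 10 of them over PBS at 1 wpi, where 11.1% of all genes were raised, with a median log2 fold change of 3.27 over the list. The 4 with the largest change are given. Chil3, a chitinase-like protein, was 0.505 to 1.04 CPM with PBS and 98.8 to 205 CPM with IL-4 MSCs (7.74 ± 0.39, adjusted p = 1.87e-14). Arg1, which breaks down arginine, was 0.317 to 6.65 and 108 to 169 CPM (5.94 ± 0.47, adjusted p = 2.11e-10), and the eosinophil chemokine Ccl24 0.147 to 0.319 and 12.9 to 25.4 CPM (6.37 ± 0.28, adjusted p = 1.41e-16). The resistin-like protein Retnla had 0.0245 to 0.111 CPM with PBS, about the detection limit, and 6.52 to 12.3 CPM with IL-4 MSCs. None of the 4 overlapped between these groups. The 5 that did not pass were Ch25h, Ccl22, Egr2, Fcer2a and Ccl17, the last at -0.44 (95% interval -1.01 to 0.13). At 3 wpi the quasi-likelihood test called 0 of the 15 against PBS, with 3 at an unadjusted p under 0.05, and Arg1 was 0.134 to 0.502 CPM and Chil3 0.0268 to 1.31 CPM with IL-4 MSCs.

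**Figure D5:**
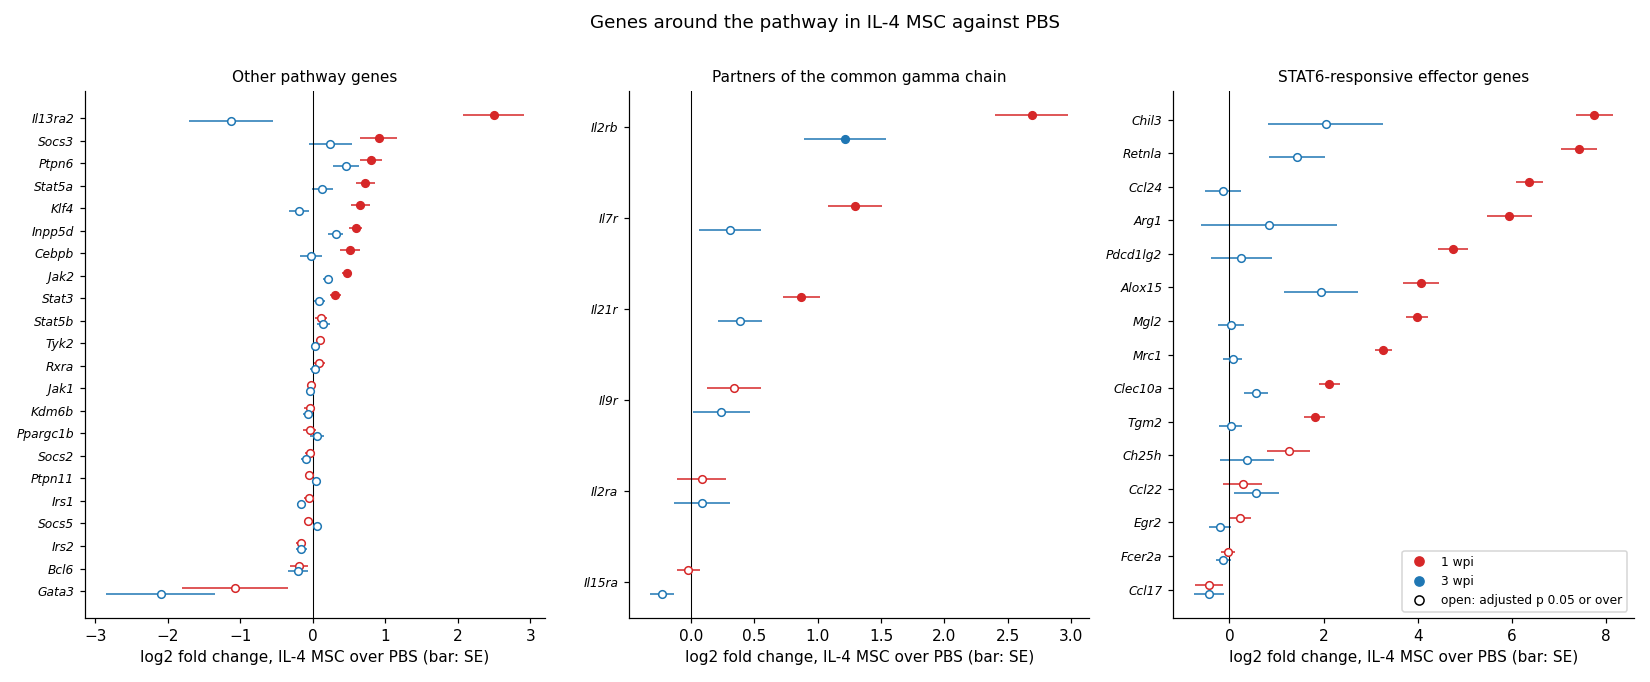
Log2 fold change of IL-4 MSCs over PBS (horizontal axes, bars are SE) at 1 wpi in red and 3 wpi in blue for the tested genes of the 3 lists, with filled points for an adjusted p under 0.05. At 1 wpi 9 of 22 other pathway genes, 3 of 6 gamma chain partners and 10 of 15 effector genes are filled, and at 3 wpi Il2rb alone.

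The genes whose log2 CPM followed a member most closely over the 34 mice were found by the root mean square (RMS) of the difference after centring both on their means. For Il4ra, whose own SD was 0.87, they were Ctsc (0.20) and Apobr (0.22), and for Il2rg, with an SD of 1.03, Ptprc (0.38) and Themis2 (0.39), with the RMS in brackets. Stat6 was followed by Tmem123 (0.12) and Arap1 (0.13), Jak3 by Sbno2 (0.15) and Cyth4 (0.17), and Il13ra1 by Nfe2l2 (0.13) and Ltbr (0.14). Nearest to Socs1 were Gbp9 (0.33) and H2-T23 (0.33), to Cish Rbms1 (0.14) and Slc16a6 (0.14), and to Irf4 Stat6 (0.33) and Trim5 (0.33). The values share libraries and groups, so this describes likeness only.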

How the data were processed

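Deposited values were gene-level estimated counts and TPM that, per the study's methods and the processing notes of the submitters, the authors made with kallisto 0.46 on 50-base reads trimmed with cutadapt 2.4, against GENCODE vM23 protein-coding transcripts. Of 35 labelled libraries 34 had values, since the submitters excluded 1 of PBS at 3 wpi. Estimated counts were rounded and, for the 17131 genes that passed filterByExpr (minimum count 10, minimum total 15), tested in 1 fit of all 7 groups with edgeR 4.0.16 (TMM, quasi-likelihood test, two-sided), in R 4.3.3, and called at an adjusted p under 0.05. Each mouse gave 1 library, so p-values measure the spread between mice. Il4 was tested by exact permutation (scipy 1.17.1). Alternatives were DESeq2 1.42.0, its size factors, no filter, fewer groups, same-week Sham, a striatum covariate, a replicate block and each mouse left out. Scripts were tested on simulated data. The members and lists were chosen with earlier results of these data known, and 1 gene of the list of other pathway genes is not reported here. Named list genes were the 4 called genes of each list with the largest change between IL-4 MSCs and PBS at 1 wpi, and for each called member the 2 nearest genes.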

Additional observations from a re-analysis of the deposited data

Results flagged for a closer look

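In 9 of 70 sets of 4 or 5 mice (10 members in 7 groups), 1 mouse lay farther from the rest than Dixon's 95% limit, which chance passes in about 1 in 20 sets. MSC replicate 5 at 3 wpi did so for Il4ra (23.6 CPM, next mouse 7.81 CPM), Il2rg (3.67 and 1.46 CPM) and Jak3 (16.1 and 8.81 CPM). IL-4 MSC replicate 3 at 3 wpi did so for Jak3 (9.94 and 8.08 CPM) and Irf4 (1.02 and 0.629 CPM). The others were Sham replicate 5 (1.68 and 0.780 CPM) and PBS replicate 4 at 3 wpi (0.950 and 0.574 CPM) for Il2rg, IL-4 MSC replicate 2 at 1 wpi for Socs1 (4.72 and 3.25 CPM) and MSC replicate 2 at 1 wpi for Il4 (0.278 and 0.139 CPM), and all were the highest mouse of their set.

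The effect of IL-4 MSCs differed between the weeks, by the interaction term in edgeR, for Il4ra (1.56 on the log2 scale), Stat6 (0.54) and Socs1 (1.68) against PBS, and for Il4ra (1.98), Il2rg (1.96), Stat6 (0.62) and Socs1 (1.67) against MSCs, all larger at 1 wpi.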

How the results depend on the processing

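Of 2637 member fold changes recomputed under the alternatives, 2494 kept their direction and their side of the threshold, 33 gained a call, 35 lost one and 75 changed sign where neither value was called; no called member changed sign. The count of members called between IL-4 MSCs and PBS at 3 wpi fell from 1 to 0 with the 2 groups alone, with the replicate block and with the striatum covariate. For Il4 the count rose from 0 to 1 of 15 comparisons in edgeR without the low-count filter, and stayed at 0 on the log2 scale and with any mouse left out. With 1 mouse left out, the counts at 3 wpi ran from 0 to 1 for MSCs against Sham, 0 to 1 for IL-4 MSCs against Sham, 0 to 1 for IL-4 MSCs against PBS and 0 to 1 for IL-4 MSCs against MSCs. Between weeks they ran from 1 to 2 in PBS, 0 to 4 in MSCs and 6 to 7 in IL-4 MSCs. At 1 wpi they ran from 8 to 9 for IL-4 MSCs against PBS and 4 to 7 against MSCs. DESeq2 called 3 in place of 2 members between weeks in PBS, with Il2rg added, and 5 in place of 4 in the week difference against MSCs, with Jak3 added. The cause of these changes was not tested.

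Replicate numbers did not pair the mice: over 71 pairs of same-numbered mice the correlation of deviations from the group means ran from -0.46 to 0.40, and in 0 comparisons were all pairs over 0.1. The replicate block changed 1 call on a member, that of Cish between IL-4 MSCs and PBS at 3 wpi (log2 difference 0.45, adjusted p = 0.0550). Il4, with at most 12 counts in a library, was too low to enter the fit of all genes.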
